A study of Mus musculus with 9 samples.

Results

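The 36 genes described here encode the autophagy machinery of the mouse. They are the protein-coding genes whose symbol is Atg followed by a digit, together with the ATG8 family genes Gabarap, Gabarapl1, Gabarapl2, Map1lc3a and Map1lc3b, the cargo receptor genes Sqstm1, Nbr1, Optn, Tax1bp1 and Calcoco1, and the genes Ulk1, Ulk2, Rb1cc1, Becn1, Uvrag, Wipi1 and Wipi2. The rule rests on gene names and function and uses no measured value, although it was set with earlier results of these data known. The 36 genes are among 51717 to which transcripts of the libraries were assigned. They were followed in B16F10, a line of pigmented mouse melanoma cells, in 3 forms with 3 libraries each. The first carries a SIRPA knockdown, the second a SIRPA overexpression and the third a non-target control, and all were grown in complete DMEM with serum. The Sirpa protein is an inhibitory receptor of CD47, studied above all on macrophages. Each condition is a single line of which the labels list 3 biological repeats, so a p-value here reflects variation among repeats of a line and not among lines made independently. The labels do not state how the knockdown or the overexpression was made, or whether a line is a clone.

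Autophagy encloses cytoplasm in a double membrane and delivers it to the lysosome. A kinase complex starts the process, a PI3-kinase complex marks the growing membrane with a phospholipid, lipid is brought in by ATG9 vesicles and transfer proteins, and a pair of ubiquitin-like conjugation systems fixes ATG8 family proteins (the LC3 and GABARAP proteins) to the membrane, where they hold cargo receptors. Much of this is controlled on the protein, and mRNA levels do not measure autophagic flux. In melanocytes and melanoma cells several of these proteins also act in the traffic and turnover of melanosomes.

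The libraries held 16.4 to 22.38 estimated counts in units of 1000000. As a check of the labels, Sirpa had 118, 112 and 115 CPM (counts per 1000000 of the library) under knockdown and 895, 898 and 914 CPM under overexpression, against 292, 289 and 303 CPM in control libraries, so the targeted gene moved as its labels say. All 7 melanocyte lineage markers were detected, and their summed level was 16500 to 17100 CPM in knockdown, 18400 to 18900 CPM in overexpression and 16900 to 17100 CPM in control libraries. Within this sum 1 marker was called higher and 4 lower in knockdown (71.4% called), beside 35.4% of all genes. In overexpression 2 were higher and 2 lower (57.1%), beside 24.3%. Of 6 markers each, 1 myeloid, 0 T and NK, 1 endothelial, 1 epithelial and 3 fibroblast genes passed the filter on low counts. Ptprc, Adgre1, Cdh5, Kdr, Tie1, Epcam and Krt5 were listed at 0 in every library, and the fibroblast sum was 17 to 18.8 CPM in knockdown, 73.6 to 83.1 CPM in overexpression and 63.7 to 66.7 CPM in control libraries. Col1a1 carried the fibroblast difference, with 4.95 ± 0.7 CPM in knockdown and 66.5 ± 3.5 CPM in overexpression, against 55.6 ± 2.5 CPM in control libraries (SD, n = 3 each), while Col1a2 was higher in both perturbed lines (log2 0.71 in knockdown and 0.67 in overexpression) and Pdgfra was called in neither. The endothelial sum, in which Eng alone passed the filter, was 344 to 379 CPM in knockdown, 291 to 310 CPM in overexpression and 260 to 278 CPM in control libraries. Ribosomal protein genes took 4.29% to 4.62% of the counts in knockdown and 4.4% to 4.62% in overexpression libraries, against 5.25% to 5.33% in control libraries. The part of these differences in the results below was not tested.

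Promoter sequences of 30 of the 36 genes were found in the RefSeq promoter table of GRCm38.p6, which covers 250 bases before and 50 after each transcription start. The letters CACGTG, the core of the E-box that MITF, TFEB and related factors bind, were searched on both strands in the most upstream promoter of each gene, as were TCACGTG, which contains it, and CATGTG, another E-box that MITF binds. CACGTG was present in the promoters of Atg3, Atg5, Atg7 and Atg14, which is 4 of 30 (13.3%), beside 7.91% of the 17491 promoters of protein-coding genes in the table. TCACGTG was present in 3 of the 30 (10.0%), Atg3, Atg7 and Atg14, beside 4.43% of all promoters, and CATGTG in 2 (6.67%), Atg2a and Atg9b, beside 11.5% of all. Of the genes that changed in the same direction in both lines, 4 that rose and 3 that fell have a promoter in the table, and 0 of these promoters hold any of these letters within this window. With so few promoters, a count of 0 cannot be told apart from the shares over all promoters. The 250 bases upstream of the start are shown for Gabarap, Gabarapl1, Sqstm1 and Ulk2, whose changes were called in both lines under every alternative, for Map1lc3b, which rose in both, and for Atg3 and Atg7, the conjugation genes with an E-box that changed in 1 line. They are written 5′ to 3′ on the strand of the gene with the CACGTG letters in capitals, and Gabarap, Gabarapl1, Map1lc3b, Sqstm1 and Ulk2 hold none.
Gabarap promoter, chr11:69991120-69991369, plus strand: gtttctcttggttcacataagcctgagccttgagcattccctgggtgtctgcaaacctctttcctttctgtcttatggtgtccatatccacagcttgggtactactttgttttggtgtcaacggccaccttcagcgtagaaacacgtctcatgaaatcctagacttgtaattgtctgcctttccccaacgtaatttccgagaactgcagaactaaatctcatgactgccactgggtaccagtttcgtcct
Gabarapl1 promoter, chr6:129532942-129533191, plus strand: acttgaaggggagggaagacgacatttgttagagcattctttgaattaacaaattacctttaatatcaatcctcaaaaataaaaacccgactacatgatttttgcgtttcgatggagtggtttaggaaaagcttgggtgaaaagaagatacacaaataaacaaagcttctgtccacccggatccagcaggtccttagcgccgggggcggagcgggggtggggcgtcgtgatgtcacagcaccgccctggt
Map1lc3b promoter, chr8:121590188-121590437, plus strand: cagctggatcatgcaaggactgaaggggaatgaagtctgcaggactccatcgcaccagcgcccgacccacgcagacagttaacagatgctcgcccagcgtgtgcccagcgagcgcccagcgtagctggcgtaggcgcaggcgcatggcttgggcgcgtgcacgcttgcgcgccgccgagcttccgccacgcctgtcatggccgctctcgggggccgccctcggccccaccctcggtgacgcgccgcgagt
Sqstm1 promoter, chr11:50210821-50211070, minus strand: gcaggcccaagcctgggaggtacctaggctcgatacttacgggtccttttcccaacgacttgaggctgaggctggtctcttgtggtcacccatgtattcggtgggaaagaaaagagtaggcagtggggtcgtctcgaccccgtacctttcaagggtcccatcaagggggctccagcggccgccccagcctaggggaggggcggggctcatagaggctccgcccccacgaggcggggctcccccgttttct
Ulk2 promoter, chr11:61855093-61855342, minus strand: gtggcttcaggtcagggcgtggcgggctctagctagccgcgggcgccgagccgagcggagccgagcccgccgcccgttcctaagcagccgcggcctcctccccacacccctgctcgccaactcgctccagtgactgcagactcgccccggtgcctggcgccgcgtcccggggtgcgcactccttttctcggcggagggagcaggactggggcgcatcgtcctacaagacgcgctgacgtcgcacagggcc
Atg3 promoter, chr16:45158579-45158828, plus strand: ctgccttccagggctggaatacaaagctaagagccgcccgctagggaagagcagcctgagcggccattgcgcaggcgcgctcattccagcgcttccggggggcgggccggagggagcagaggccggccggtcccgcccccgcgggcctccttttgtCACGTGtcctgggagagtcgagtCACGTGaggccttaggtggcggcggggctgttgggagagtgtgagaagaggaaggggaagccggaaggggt
Atg7 promoter, chr6:114670846-114671095, plus strand: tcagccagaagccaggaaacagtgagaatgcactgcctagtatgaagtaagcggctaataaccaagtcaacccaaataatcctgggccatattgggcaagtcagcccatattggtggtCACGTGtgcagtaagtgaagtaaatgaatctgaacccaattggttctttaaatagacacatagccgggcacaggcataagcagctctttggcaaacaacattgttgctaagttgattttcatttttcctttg
The Atg3 window holds the letters at 2 places and the Atg7 window at 1.

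On the TPM scale, which corrects for transcript length and so allows genes to be compared, Sqstm1 stood far above the other members. It averaged 1270 ± 55 TPM in knockdown, 1070 ± 6.1 TPM in overexpression and 940 ± 8.3 TPM in control libraries (SD, n = 3 each), ranked 155 of 51717 genes by mean TPM, and held 46.0% of the summed TPM of all members in knockdown, 41.9% in overexpression and 38.8% in control libraries. Sqstm1 encodes p62, a receptor that carries ubiquitin-tagged cargo to ATG8 proteins. Gabarap, Tax1bp1, Becn1, Gabarapl1 and Map1lc3b came next, with ranks between 724 and 1340. The lowest of the tested members were Atg9b, at 1.24 ± 0.85 TPM in knockdown, 0.436 ± 0.39 TPM in overexpression and 0.216 ± 0.22 TPM in control libraries, and Atg14, at 6.49 ± 0.62 TPM in knockdown, 4.66 ± 0.23 TPM in overexpression and 4.57 ± 0.57 TPM in control libraries (SD, n = 3 each). Outside the receptors and the ATG8 family, Becn1 was the highest member, at 149 ± 28 TPM in knockdown, 143 ± 20 TPM in overexpression and 152 ± 6.9 TPM in control libraries (SD, n = 3 each). Atg4a-ps, an annotated protein-coding copy of Atg4a that shares 78.03% of its 31-base words with it, had 4 counts over all 9 libraries and was not tested.

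**Figure D1:**
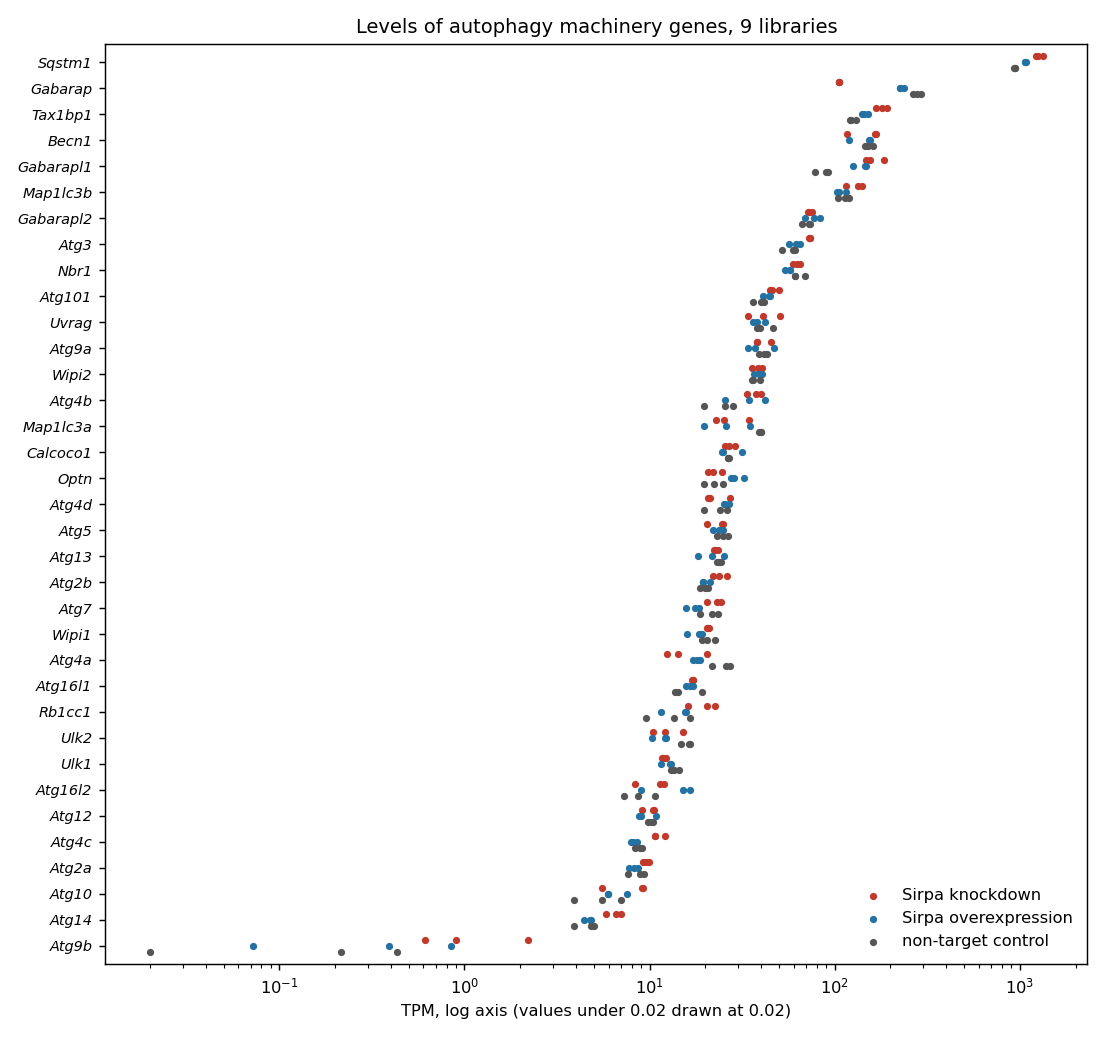
TPM of each tested autophagy gene in the 9 libraries on a log axis, with genes ordered by level (1 point a library, knockdown above overexpression above control in each row, the lowest values drawn at the floor named on the axis). Sqstm1 lies highest, with means of 1270 TPM in knockdown, 1070 TPM in overexpression and 940 TPM in control libraries, and Atg9b lowest.

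The question of each comparison is how the mRNA of these genes differs in cells with less or more Sirpa. A gene was called when edgeR's quasi-likelihood test gave it an adjusted p under 0.05, with the Benjamini-Hochberg adjustment made over the 13064 genes tested, and 35 of the 36 members passed the filter on low counts. In the knockdown line 12 of 35 were called against control (34.3%), 6 higher and 6 lower, beside 35.4% of all genes tested, 18.0% higher and 17.4% lower. The members were therefore called about as often as any other gene, and their median log2 difference was -0.04, beside -0.01 over all genes. In the overexpression line 14 of 35 were called (40%), 5 higher and 9 lower, beside 24.3% of all genes, 13.1% higher and 11.1% lower, with a median of -0.11 beside 0 over all genes. This excess did not hold when the effective transcript length of each library entered as an offset: 4 of 35 members (11.4%) were then called in the overexpression line, beside 12.1% of all genes, and 8 of 35 (22.9%) in the knockdown line, beside 21.4%. The count of 14 in the overexpression line was 9 (25.7%), 9 (25.7%) and 8 (22.9%) without control replicate 1, 2 and 3, beside 18.5%, 18.5% and 18.3% of all genes. It was 9 (25.7%) without overexpression replicate 1 or 2, beside 18.5% and 18.6% of all genes. Without overexpression replicate 3 it was 13 (37.1%), beside 18.8% of all genes. The libraries of knockdown and control did not overlap for 20 of 35 members (57.1%), beside 45.8% of all genes, and those of overexpression and control for 17 of 35 (48.6%), beside 40.4% of all genes. Both comparisons share the control libraries, so their directions are not independent.

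Side by side, Gabarapl1, Map1lc3b, Sqstm1 and Tax1bp1 rose in both lines against control, and Gabarap, Map1lc3a, Atg4a and Ulk2 fell in both. No member was called in opposite directions. Atg2b and Atg3 rose, and Becn1 and Ulk1 fell, with a call in the knockdown line alone. Optn rose, and Atg7, Atg9a, Nbr1, Rb1cc1 and Wipi1 fell, with a call in the overexpression line alone, and 17 members were called in neither. Joint calls over all genes were not counted, so these numbers cannot be read as unusual for the members. A call in 1 line alone does not show that the lines differ from each other. Calls made with the length offset, with each library left out and under each of the other alternatives, 18 in all, were those of Atg3, Atg4a, Gabarap, Gabarapl1, Sqstm1, Tax1bp1, Ulk1 and Ulk2 in the knockdown line and of Gabarap, Gabarapl1, Sqstm1 and Ulk2 in the overexpression line.

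**Figure D2:**
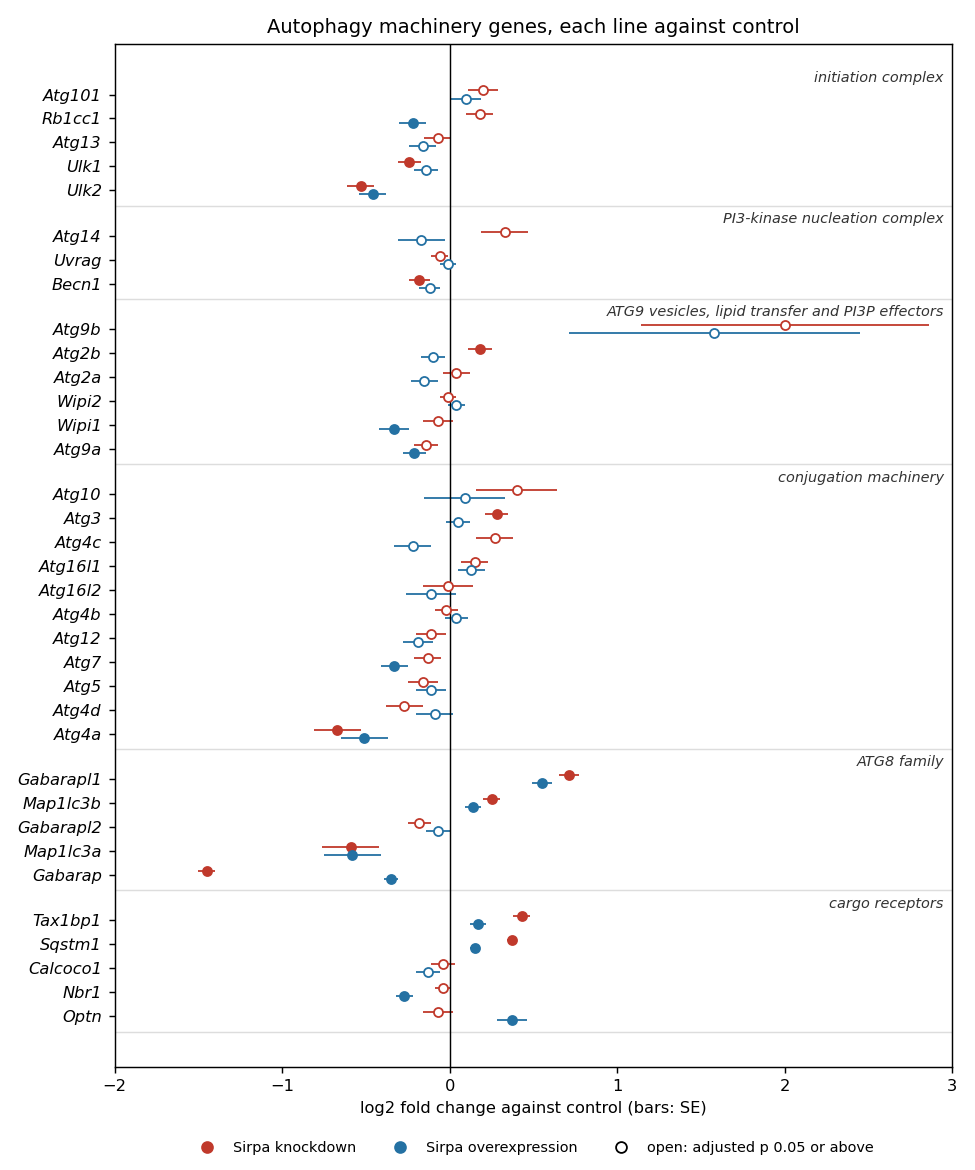
Log2 fold change of each tested autophagy gene in the knockdown and the overexpression line against control, grouped by role (points, bars give the standard error of the edgeR fit, filled points have an adjusted p under 0.05). Gabarap lies lowest in knockdown at -1.45, and Gabarapl1, Sqstm1 and Tax1bp1 lie above 0 in both lines.

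The ATG8 family held the largest called difference of the machinery in each line, and its members moved apart. Of 5 genes, 2 rose and 2 fell in the knockdown line (80% called), beside 35.4% of all genes. In the overexpression line 2 rose and 2 fell (80%), beside 24.3%. Gabarap, which founds the GABARAP branch of the family, had 79.7, 73.0 and 78.7 CPM in knockdown and 166, 170 and 163 CPM in overexpression libraries, against 215, 212 and 207 CPM in control libraries. The 3 lines do not overlap, with the knockdown line lowest and control highest. Gabarap was 2.74-fold lower in knockdown (log2 -1.45 ± 0.05 SE, adjusted p = 1.54e-12) and 1.27-fold lower in overexpression (log2 -0.35 ± 0.04 SE, adjusted p = 3.03e-05; edgeR, n = 3 libraries a line). Over the alternatives its log2 difference stayed between -1.48 and -1.41 in knockdown and between -0.36 and -0.33 in overexpression. Gabarap shares none of its 31-base words with another gene and overlaps no other gene's exons. In bulk RNA fewer cells with the transcript and less of it per cell cannot be told apart.

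Gabarapl1, a close relative of Gabarap in the same branch, went the other way. It had 158, 141 and 137 CPM in knockdown and 136, 125 and 131 CPM in overexpression libraries, against 87.9, 91.2 and 88 CPM in control libraries. Both perturbed lines lie above every control library, while the knockdown and overexpression libraries lie close together. The rise was 1.64-fold in knockdown (log2 0.71 ± 0.06 SE, adjusted p = 1.17e-07) and 1.47-fold in overexpression (log2 0.55 ± 0.06 SE, adjusted p = 3.9e-06). Its exons overlap those of 1700101I11Rik on the opposite strand over 28.3% of their length, and the libraries do not mark strand, but that gene averaged 5.46 counts a library beside 2239 for Gabarapl1.

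Gabarapl2, the remaining GABARAP gene, had 58.3, 56.4 and 48.2 CPM in knockdown and 58.1, 58.0 and 59.8 CPM in overexpression libraries, against 62.7, 60.7 and 60.7 CPM in control libraries. Every perturbed library lies below every control library, but by little, and neither difference was called (log2 -0.18, adjusted p = 0.0761 in knockdown, and log2 -0.07, adjusted p = 0.58 in overexpression).

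In the LC3 branch, too, 1 gene rose and 1 fell in both lines. Map1lc3b, whose protein is the usual marker of autophagosomes, had 130, 125 and 130 CPM in knockdown and 118, 120 and 117 CPM in overexpression libraries, against 107, 111 and 106 CPM in control libraries. The 3 lines do not overlap, with the knockdown line highest. The rise was 1.19-fold in knockdown (log2 0.25 ± 0.05 SE, adjusted p = 0.000462) and 1.1-fold in overexpression (log2 0.14 ± 0.05 SE, adjusted p = 0.0416). The knockdown call was kept in 17 of 18 alternatives and lost with the length offset (log2 0.14, adjusted p = 0.308). The overexpression call was kept in 7 of 18 alternatives and turned to -0.11 (adjusted p = 0.513) with the length offset, and on the TPM scale Map1lc3b averaged 108 ± 6.2 in overexpression and 112 ± 7.8 in control libraries (SD, n = 3 each).

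Map1lc3a, the other LC3 gene, had 14.8, 18.8 and 13.3 CPM in knockdown and 15.0, 11.7 and 20.6 CPM in overexpression libraries, against 24.4, 22.9 and 23.3 CPM in control libraries. The control libraries agree closely and lie above all others, and the perturbed libraries scatter more widely. It was 1.51-fold lower in knockdown (log2 -0.59 ± 0.17 SE, adjusted p = 0.0113) and 1.49-fold lower in overexpression (log2 -0.58 ± 0.17 SE, adjusted p = 0.0187). The calls held in 16 of 18 alternatives in knockdown and 14 in overexpression, and were lost in knockdown without knockdown replicate 3 (adjusted p = 0.0515) and in overexpression without overexpression replicate 1 or 2 or control replicate 1 (adjusted p = 0.0646, 0.0885 and 0.0635). With the length offset both calls were lost too (adjusted p = 0.057 in knockdown and 0.0752 in overexpression).

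**Figure D3:**
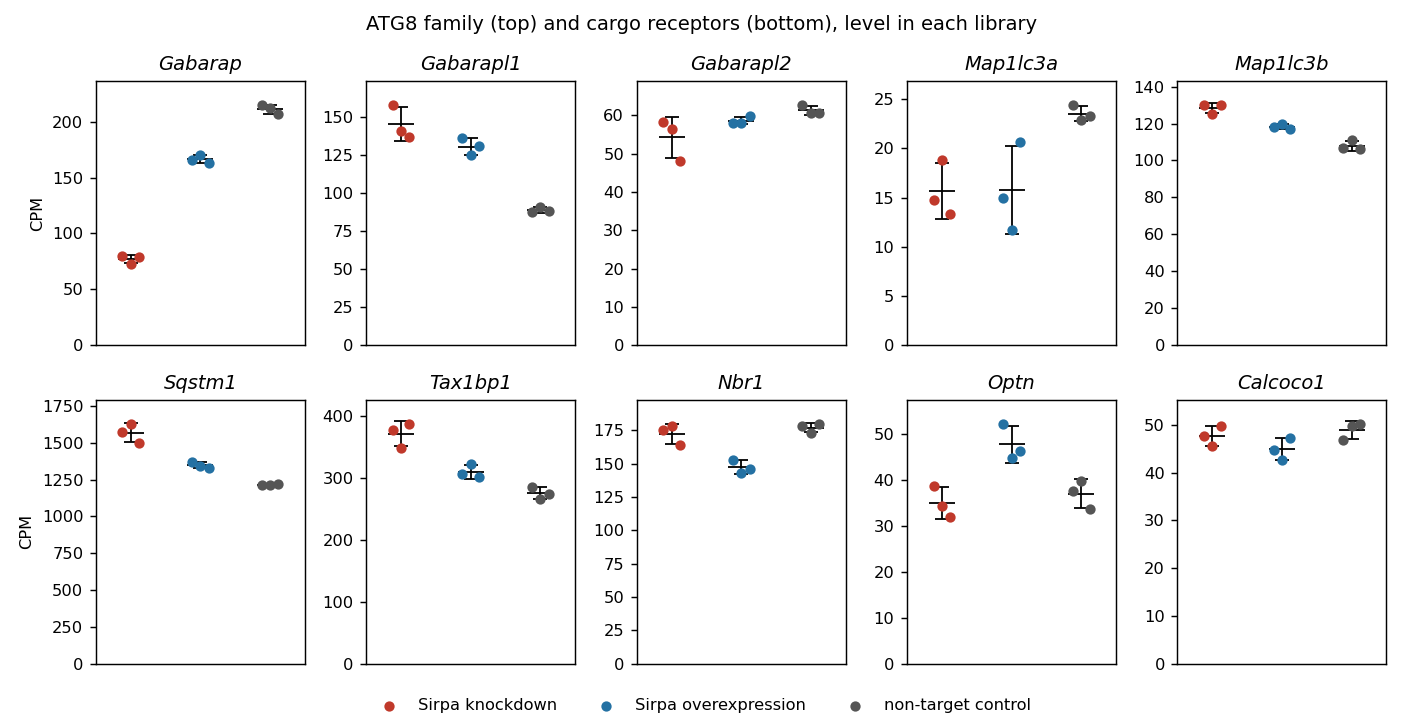
CPM of the 5 ATG8 family genes and the 5 cargo receptor genes in each knockdown, overexpression and control library (points are libraries, bars give mean and SD of 3, each axis starts at 0). Gabarap separates all 3 lines, with knockdown between 73.0 and 79.7 CPM, while Sqstm1 and Tax1bp1 are highest in knockdown and lowest in control libraries.

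The makeup of the ATG8 transcript pool differed between lines. On the TPM scale Gabarap made up 21.1% ± 1.1 of the summed ATG8 family in knockdown and 39.5% ± 1.7 in overexpression libraries, against 47.4% ± 1.1 in control libraries (SD, n = 3 each). Gabarapl1 made up 32.6% ± 2.4 in knockdown and 24.0% ± 2.0 in overexpression, against 14.7% ± 0.64 in control. Gabarap was therefore the leading ATG8 transcript in overexpression and control libraries and stood behind Gabarapl1 and Map1lc3b in every knockdown library. Map1lc3b held 26.0% ± 1.9 in knockdown, 18.6% ± 1.3 in overexpression and 19.1% ± 0.64 in control libraries. The family sum itself was 527, 481 and 483 TPM in knockdown and 574, 574 and 591 TPM in overexpression, against 602, 606 and 560 TPM in control libraries, so the knockdown libraries lie below the others and the overexpression and control libraries overlap. No test was run on these shares and sums.

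**Figure D4:**
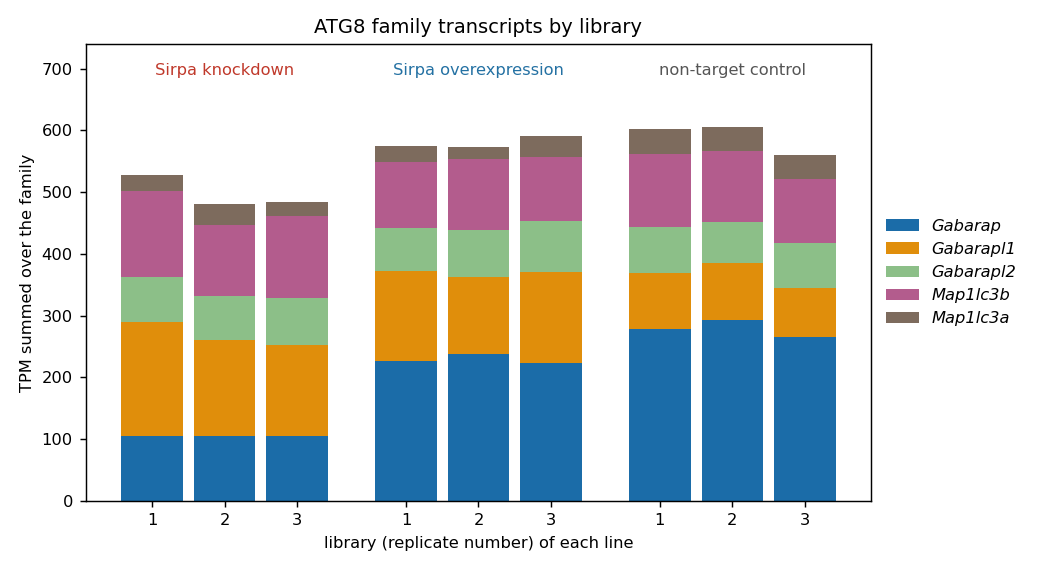
TPM of the ATG8 family genes stacked in 1 bar for each knockdown, overexpression and control library, from 0, so that the bar height is the family sum. Gabarap, at the base, makes up 19.9% to 21.8% of the bar in knockdown libraries and 46.3% to 48.4% in control libraries, and the knockdown bars are the shortest.

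Among the cargo receptors, Sqstm1 and Tax1bp1 rose in both lines and none fell in the knockdown line. Of 5 genes, 2 (40%) rose in knockdown, beside 35.4% of all genes called in either direction. In overexpression 3 rose and 1 fell (80% called), beside 24.3%. Sqstm1 had 1570, 1630 and 1500 CPM in knockdown and 1370, 1340 and 1330 CPM in overexpression libraries, against 1210, 1210 and 1220 CPM in control libraries. The lines do not overlap, and the knockdown line is highest. The rise was 1.29-fold in knockdown (log2 0.37 ± 0.03 SE, adjusted p = 5.84e-07) and 1.11-fold in overexpression (log2 0.15 ± 0.03 SE, adjusted p = 0.00467). Exons of Mrnip on the opposite strand cover 17.3% of those of Sqstm1, at 104.19 counts a library beside 25185.

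Tax1bp1, a receptor that binds ubiquitin and recruits the initiation complex to cargo, had 377, 349 and 388 CPM in knockdown and 306, 323 and 301 CPM in overexpression libraries, against 286, 266 and 274 CPM in control libraries. Its lines do not overlap and stand in the same order as those of Sqstm1. The rise was 1.35-fold in knockdown (log2 0.43 ± 0.05 SE, adjusted p = 2.73e-06) and 1.13-fold in overexpression (log2 0.17 ± 0.05 SE, adjusted p = 0.0135). The overexpression call was lost without control replicate 2 or 3 or overexpression replicate 2 (adjusted p = 0.0598, 0.0547 and 0.0698) and with the length offset (0.0683).

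The other receptors were called in overexpression alone or in neither line. Nbr1, a receptor that binds ubiquitin and works with p62, had 175, 178 and 164 CPM in knockdown and 153, 143 and 146 CPM in overexpression libraries, against 178, 173 and 180 CPM in control libraries. Only the overexpression libraries stand apart, 1.2-fold below control (log2 -0.27 ± 0.05 SE, adjusted p = 0.000484, and 0.0578 with the length offset), and the knockdown difference was log2 -0.04 (adjusted p = 0.545). Optn, a receptor known from the removal of mitochondria and bacteria, had 38.8, 34.3 and 32.0 CPM in knockdown and 52.3, 44.7 and 46.4 CPM in overexpression libraries, against 37.7, 39.8 and 33.6 CPM in control libraries. It was 1.29-fold higher in overexpression (log2 0.37 ± 0.09 SE, adjusted p = 0.00711), and its knockdown and control libraries overlap. That call was lost without control replicate 3 (adjusted p = 0.0534) and with the length offset (0.076). Calcoco1, a receptor for the endoplasmic reticulum and the Golgi, had 47.6, 45.6 and 49.8 CPM in knockdown and 44.7, 42.7 and 47.3 CPM in overexpression libraries, against 46.9, 49.8 and 50.3 CPM in control libraries. Its lines overlap and it was called in neither comparison. Summed over the 5 receptors, of which Sqstm1 gives most, the level was 1560 ± 42 TPM in knockdown and 1330 ± 3.4 TPM in overexpression libraries, against 1180 ± 12 TPM in control libraries (SD, n = 3 each, not tested).

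In the initiation complex, 2 of 5 genes (40%) fell in knockdown, Ulk1 and Ulk2, beside 35.4% of all genes called in either direction. In overexpression 2 fell (40%), Ulk2 and Rb1cc1, beside 24.3%, and none was called higher in either line. Ulk2, a kinase that acts beside Ulk1 at the start of autophagy, had 42.5, 39.5 and 42.3 CPM in knockdown and 41.3, 47.5 and 41.6 CPM in overexpression libraries, against 58.8, 55.7 and 64.4 CPM in control libraries. All perturbed libraries lie below all control libraries and the perturbed lines overlap each other. It was 1.44-fold lower in knockdown (log2 -0.53 ± 0.08 SE, adjusted p = 7.14e-05) and 1.37-fold lower in overexpression (log2 -0.46 ± 0.08 SE, adjusted p = 0.00045). Ulk1, the main kinase of the complex, had 37.5, 35.7 and 36.7 CPM in knockdown and 40.3, 40.5 and 37.2 CPM in overexpression libraries, against 44.4, 43.4 and 42.4 CPM in control libraries. The fall was called in knockdown (log2 -0.24 ± 0.07 SE, adjusted p = 0.0116), and the overexpression difference was log2 -0.14 (adjusted p = 0.157).

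Rb1cc1, the scaffold FIP200 of the complex, had 47.3, 42.2 and 40.8 CPM in knockdown and 33.0, 33.8 and 31.7 CPM in overexpression libraries, against 39.2, 38.9 and 37.1 CPM in control libraries. The overexpression libraries are lowest and the knockdown libraries highest. The fall in overexpression (log2 -0.22 ± 0.08 SE, adjusted p = 0.0446) was kept in 7 of 18 alternatives and was 0.06 (adjusted p = 0.885) with the length offset, while the knockdown difference was log2 0.18 (adjusted p = 0.0744). Atg13 and Atg101, the remaining subunits, were called in neither line, with log2 differences of -0.07 and 0.20 in knockdown and of -0.16 and 0.10 in overexpression.

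Of the 3 PI3-kinase nucleation genes, 1 (33.3%) fell in knockdown, beside 35.4% of all genes called, and 0 were called in overexpression, beside 24.3%. Becn1, which encodes the regulatory subunit beclin, had 128, 128 and 113 CPM in knockdown and 136, 129 and 119 CPM in overexpression libraries, against 135, 139 and 145 CPM in control libraries. Its fall in knockdown (log2 -0.18 ± 0.06 SE, adjusted p = 0.0262) turned to 0.12 (adjusted p = 0.455) when only protein-coding transcripts were summed. Such transcripts held 27.4% ± 15 of its TPM in knockdown, 24.6% ± 12 in overexpression and 15.5% ± 8.3 in control libraries (SD, n = 3 each). These shares scatter widely, and the coding transcript Becn1-204 had 0, 33.6 and 53.3 TPM in knockdown and 24.5, 13.7 and 0 TPM in control libraries. The Becn1 call was also lost without control replicate 2 or 3 or knockdown replicate 3 (adjusted p = 0.0661, 0.116 and 0.131) and with the length offset (log2 -0.1, adjusted p = 0.613). Its exons overlap those of Cntd1 on the opposite strand over 43.9% of their length, at 3.98 counts a library beside 2379. Atg14, the subunit that directs the kinase to autophagy, had 15.0, 12.9 and 12.5 CPM in knockdown and 9.38, 10.0 and 9.11 CPM in overexpression libraries, against 11.6, 11.4 and 9.17 CPM in control libraries. The knockdown libraries are highest, but neither line was called against control (adjusted p = 0.0796 in knockdown and 0.437 in overexpression). Uvrag, the subunit of the complex that acts on endosomes, differed by log2 -0.06 in knockdown and -0.01 in overexpression (adjusted p = 0.45 in knockdown and 0.924 in overexpression).

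Of 6 genes of ATG9 vesicles, lipid transfer and phospholipid binding, 1 (16.7%) rose in knockdown, beside 35.4% of all genes called in either direction, and 2 (33.3%) fell in overexpression, beside 24.3%. Wipi1, a protein that reads the phospholipid made by the PI3-kinase, had 32.5, 31.9 and 29.7 CPM in knockdown and 24.5, 26.2 and 28.1 CPM in overexpression libraries, against 30.0, 33.9 and 35 CPM in control libraries. The overexpression libraries are lowest (log2 -0.33 ± 0.09 SE, adjusted p = 0.0124), a call lost without control replicate 3 or overexpression replicate 1 (adjusted p = 0.0624 and 0.0593) and with the length offset (0.136). Its relative Wipi2 differed by at most 0.04 on the log2 scale in either line. Atg2b, which moves lipid into the growing membrane, had 97.9, 93.3 and 106 CPM in knockdown and 85.3, 75.4 and 84.1 CPM in overexpression libraries, against 87.4, 90.7 and 84.1 CPM in control libraries. Its rise in knockdown (log2 0.18 ± 0.07 SE, adjusted p = 0.0405) was kept in 11 of 18 alternatives. Atg9a, the membrane protein of the vesicles, fell in overexpression (log2 -0.21 ± 0.07 SE, adjusted p = 0.0408), also in 11 of 18 alternatives. Its low-abundance relative Atg9b had 0.902, 1.61 and 0.972 CPM in knockdown and 1.04, 0.177 and 1.38 CPM in overexpression libraries, against 0.613, 0 and 0.246 CPM in control libraries, and no call was made (adjusted p = 0.0852 in knockdown and 0.214 in overexpression).

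The conjugation machinery was the largest role. Of 11 tested genes, 1 rose and 1 fell in knockdown (18.2% called), beside 35.4% of all genes. In overexpression 2 fell (18.2%), beside 24.3%. Log2 differences ran from -0.67 to 0.40 in knockdown and from -0.51 to 0.13 in overexpression. Atg4a, a protease that trims ATG8 proteins before conjugation and releases them afterwards, had 27.4, 16.6 and 18.8 CPM in knockdown and 23.4, 24.9 and 22.4 CPM in overexpression libraries, against 34.8, 35.1 and 30.7 CPM in control libraries. All perturbed libraries lie below control, and the knockdown libraries scatter. It was 1.59-fold lower in knockdown (log2 -0.67 ± 0.14 SE, adjusted p = 0.00138) and 1.42-fold lower in overexpression (log2 -0.51 ± 0.14 SE, adjusted p = 0.014), and the overexpression call was lost without control replicate 1 or 2 or overexpression replicate 3 (adjusted p = 0.0511, 0.0527 and 0.0532) and with the length offset (0.09). It shares 60.75% of its 31-base words with its copy Atg4a-ps, between which fragments could be divided, although that copy held almost no counts.

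Atg3, the enzyme that joins ATG8 proteins to lipid, had 93.0, 90.2 and 89.8 CPM in knockdown and 83.5, 78.3 and 70.6 CPM in overexpression libraries, against 80.0, 77.5 and 67.8 CPM in control libraries. The knockdown libraries stand above the others (log2 0.28 ± 0.07 SE, adjusted p = 0.00727), and overexpression and control overlap. Atg7, the enzyme that activates both ubiquitin-like systems, had 45.9, 45.3 and 42.4 CPM in knockdown and 37.0, 39.8 and 39.1 CPM in overexpression libraries, against 49.0, 52.6 and 44.7 CPM in control libraries. The overexpression libraries are lowest (log2 -0.33 ± 0.08 SE, adjusted p = 0.00401, and 0.06 with the length offset), and the knockdown difference was log2 -0.13 (adjusted p = 0.205). Atg3 and Atg7, whose promoters with the E-box letters are shown above because they changed, were called in different lines and opposite directions. Atg5 and Atg14, whose promoters also hold CACGTG, were called in neither line against control. A link between the letters and the changes was not tested. Atg5, Atg10, Atg12, Atg16l1, Atg16l2, Atg4b, Atg4c and Atg4d, which build or feed the conjugation complex, were called in neither line.

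Set directly against each other, the overexpression and knockdown lines differed for 11 of 35 members (31.4%), 2 higher and 9 lower in overexpression, beside 22.1% of all genes tested, 11.0% higher and 11.1% lower. The libraries of these lines did not overlap for 16 of 35 members (45.7%), beside 35.9% of all genes. With the length offset 5 of 35 were called (14.3%), beside 10.9% of all genes, and these 5 were Gabarap, Optn, Sqstm1, Tax1bp1 and Atg4c. Gabarap was 2.15-fold higher in overexpression than in knockdown (log2 1.11 ± 0.05 SE, adjusted p = 1.35e-10) and Optn 1.36-fold higher (log2 0.44 ± 0.09 SE, adjusted p = 0.00217). Sqstm1 was 1.16-fold lower in overexpression (log2 -0.22 ± 0.03 SE, adjusted p = 0.000273) and Tax1bp1 1.2-fold lower (log2 -0.26 ± 0.05 SE, adjusted p = 0.000769). Atg4c, another ATG8 protease, had 14.3, 15.7 and 15.5 CPM in overexpression libraries, against 23.4, 19.9 and 20.0 CPM in knockdown libraries, which do not overlap (log2 -0.48 ± 0.11 SE, adjusted p = 0.00432). Nbr1, Rb1cc1, Atg14, Atg2b, Atg3 and Wipi1 were also lower in overexpression, by log2 -0.23, -0.40, -0.50, -0.28, -0.23 and -0.26, with adjusted p from 0.0011 for Rb1cc1 to 0.0482 for Wipi1, whose call held in 7 of 18 alternatives. Gabarapl1 and Map1lc3b did not pass this test (log2 -0.16, adjusted p = 0.0593, and log2 -0.12, adjusted p = 0.0865), although their libraries do not overlap between these lines. Gabarapl1 was called in 3 of 18 alternatives and Map1lc3b in 1. Map1lc3a, Ulk2 and Atg4a did not pass either (log2 0.01, 0.07 and 0.16).

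Other genes of the pathway, taken from 5 lists that hold no member, were called at varying shares, beside the same 35.4% and 24.3% of all genes. In the list for mTORC1 and AMPK, the kinases that couple autophagy to nutrients and energy, 6 of 23 rose and 2 fell in knockdown, and 5 rose and 2 fell in overexpression. Sesn2, a sestrin that restrains mTORC1, had 89.0, 94.5 and 99.1 CPM in knockdown and 87.2, 80.3 and 85 CPM in overexpression libraries, against 62.7, 61.3 and 64.4 CPM in control libraries (log2 0.58 ± 0.06 SE, adjusted p = 1.91e-06 in knockdown, and log2 0.42 ± 0.06 SE, adjusted p = 0.000103 in overexpression). Both perturbed lines lie wholly above control, and its relative Sesn3 also rose in both (log2 0.48 in knockdown and 0.28 in overexpression). Ddit4, another restraint on mTORC1, rose in knockdown (log2 0.61 ± 0.09 SE, adjusted p = 4.17e-05). Deptor, an inhibitor bound to mTOR itself, had 43.6, 30.6 and 40.5 CPM in knockdown and 25.3, 27.4 and 28.7 CPM in overexpression libraries, against 48.7, 47.0 and 55.9 CPM in control libraries, and fell in both (log2 -0.40 ± 0.11 SE, adjusted p = 0.00962 in knockdown, and log2 -0.90 ± 0.11 SE, adjusted p = 2.32e-05 in overexpression).

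Among 9 tested transcription factors of autophagy genes, 3 rose and 2 fell in knockdown, and 2 rose and 1 fell in overexpression. Foxo1, a forkhead factor that drives autophagy genes, had 26.2, 25.8 and 22.4 CPM in knockdown and 17.9, 21.9 and 23.4 CPM in overexpression libraries, against 13.2, 15.0 and 13.4 CPM in control libraries (log2 0.84 ± 0.12 SE, adjusted p = 4e-05 in knockdown, and log2 0.60 ± 0.12 SE, adjusted p = 0.0015 in overexpression). Mitf, the melanocyte lineage factor of the TFEB family, had 296, 288 and 285 CPM in knockdown and 345, 331 and 327 CPM in overexpression libraries, against 389, 380 and 366 CPM in control libraries (log2 -0.38 ± 0.04 SE, adjusted p = 1.64e-06 in knockdown, and log2 -0.18 ± 0.04 SE, adjusted p = 0.00367 in overexpression). All perturbed libraries lie above control for Foxo1 and below it for Mitf. Foxo4, another forkhead factor, rose in knockdown (log2 0.51 ± 0.07 SE, adjusted p = 1.8e-05), and Atf4, the stress response factor, rose in overexpression (log2 0.30, adjusted p = 6.66e-05).

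Of 19 tested organelle-specific receptors and adaptors, 7 rose and 3 fell in knockdown, and 2 rose and 2 fell in overexpression. Trp53inp1, a p53-induced protein that binds ATG8 proteins, had 376, 337 and 360 CPM in knockdown and 185, 188 and 189 CPM in overexpression libraries, against 141, 137 and 147 CPM in control libraries. Its lines do not overlap, and the rise was 2.53-fold in knockdown (log2 1.34 ± 0.05 SE, adjusted p = 4.57e-12) and 1.32-fold in overexpression (log2 0.40 ± 0.05 SE, adjusted p = 1.01e-05). Sec62 and Atl3, receptors for the endoplasmic reticulum, and Tbk1, the kinase that activates Optn, rose in knockdown (log2 0.37, 0.35 and 0.48).

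Of 15 genes for fusion with the lysosome, 2 rose and 4 fell in knockdown, and 2 rose and 1 fell in overexpression. Vps11 and Vps18, core subunits of the tethering complex HOPS, and the SNARE gene Ykt6 fell in knockdown (log2 -0.43, -0.36 and -0.33), and Plekhm1, an adaptor between HOPS and LC3 proteins, rose in both lines (log2 0.28 in knockdown and 0.27 in overexpression). Of 11 further nucleation factors, 1 rose and 2 fell in each line. Sh3glb1, which binds Uvrag, rose in both (log2 0.26 in knockdown and 0.19 in overexpression). Nrbf2, a partner of Atg14, and Wdr45b, a relative of the Wipi proteins, fell in knockdown (log2 -0.26 and -0.25), and Rubcn, an inhibitor of the PI3-kinase complex, fell in overexpression (log2 -0.37 ± 0.08 SE, adjusted p = 0.0021).

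**Figure D5:**
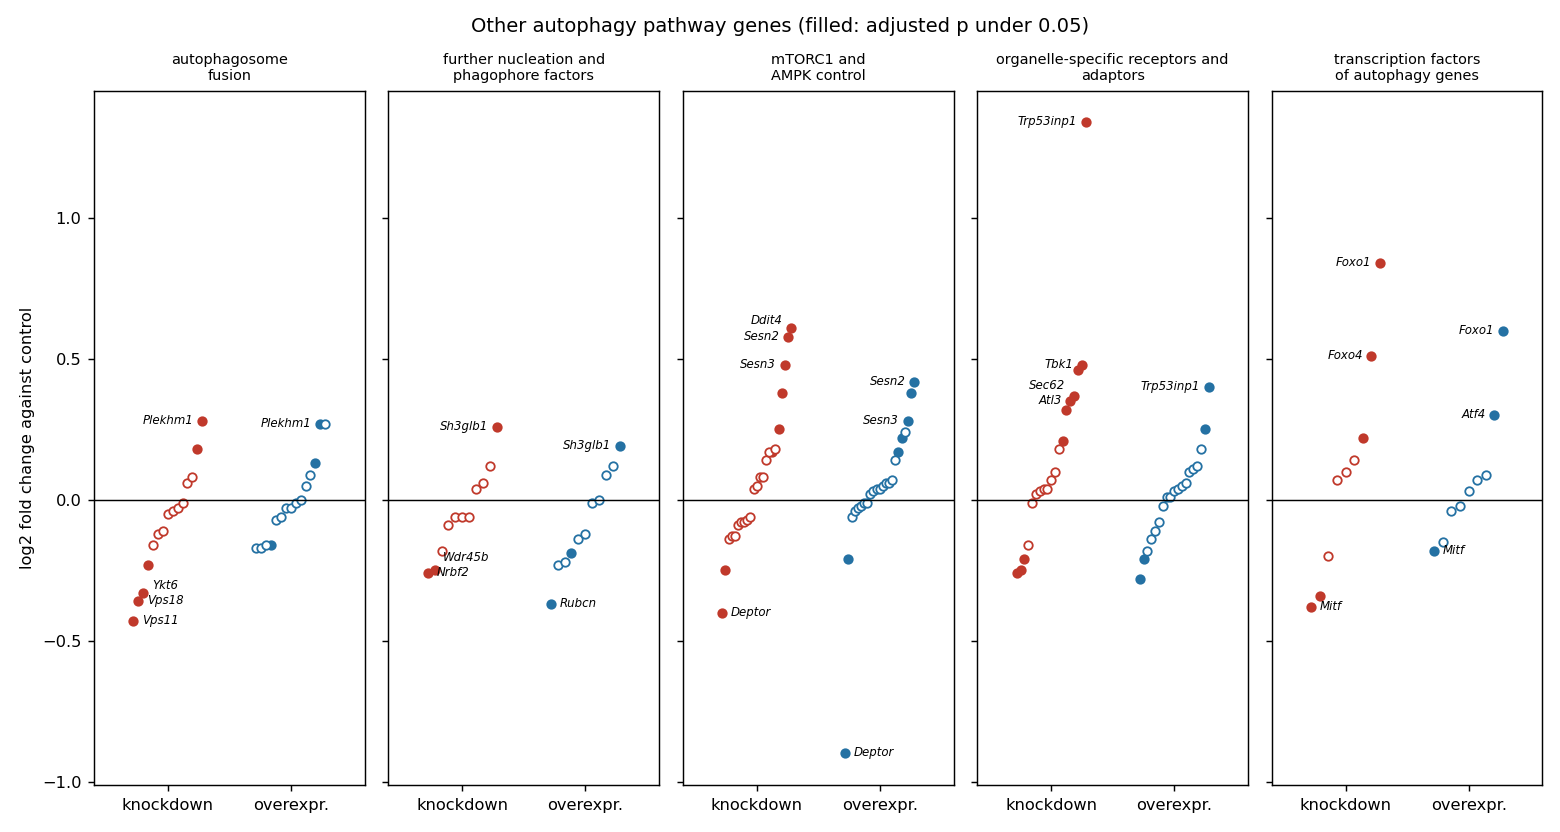
Log2 fold change of the tested genes of the 5 pathway lists in the knockdown and the overexpression line against control (1 point a gene, filled where the adjusted p is under 0.05, named genes labelled). Trp53inp1 lies highest, at 1.34 in knockdown, and Deptor lowest, at -0.90 in overexpression.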

How the data were processed

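RNA of 3 libraries each of the knockdown, overexpression and control lines was sequenced from non-directional libraries, per the labels' protocols. The deposited tables give, per the file headers, an estimated count, a TPM value and an effective length in bases for each transcript. The build mm39 and the programs DESeq2 1.34.0, MultiQC 1.11 and Salmon 1.4.0 are named per the submitters' processing notes. The annotation release is not given in the sources used here.

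Transcripts were matched to genes by identifier with GENCODE M21 (97.42% of 140789 matched, the rest held 0.554% to 0.654% of counts). Estimated counts and TPM were summed per gene, and counts were rounded. edgeR 4.0.16 in R 4.3.3 (filterByExpr, TMM, quasi-likelihood fit to all 9 libraries, line as the only term) gave the tests. CPM uses TMM library sizes. A standard error is the log2 fold change divided by the square root of F. The steps were tested on simulated data. Libraries of a line differed by more than sampling noise (chi-square 4.77 to 10.55 per degree of freedom), so none was a copy. The members, gene lists and markers were chosen with earlier results of these data known. Values in every library are given for the ATG8 family, the receptors and the 8 called members with the largest change in each comparison with control that reach 5 CPM, and other members shown so were chosen after their values were seen. Up to 4 genes of each pathway list, those with the lowest adjusted p, are named. Alternatives were DESeq2 1.42.0, limma-voom 3.58.1, other size factors, other filters, a length offset, coding transcripts alone, the lines compared alone, a replicate block and each library left out.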

Additional observations from a re-analysis of the deposited data

How the results depend on the processing

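With the effective transcript length as an offset, 8 members were called in knockdown against control (12 without it), 4 in overexpression against control (14 without it) and 5 in overexpression against knockdown (11 without it). All genes called were then 2794, 1575 and 1423, and the common biological coefficient of variation was 0.165, beside 0.097 without the offset; the cause was not tested. Leaving out 1 library at a time gave 10 to 13, 8 to 14 and 9 to 12 members in these comparisons. The other alternatives stayed within 1.5 times the reported counts. Among differences called in the reported fit or the alternative, Becn1 reversed in knockdown with coding transcripts alone (0.12, adjusted p = 0.455). With the offset in overexpression against control, Map1lc3b (-0.11, adjusted p = 0.513) and Rb1cc1 (0.06, adjusted p = 0.885) reversed. The cause was not tested. Some differences called in neither fit also changed sign, such as that of Atg4b in knockdown (-0.15 to 0.54), and are not listed. Atg4a differed between overexpression and knockdown without knockdown replicate 1 (0.41, adjusted p = 0.0173), and Atg9b was called in knockdown with DESeq2 (adjusted p = 0.0341), limma-voom (0.0493), no filter (0.0425) and without control replicate 1 (0.0458). Against control, Atg9a, Gabarapl2 and Nbr1 gained a call in 1 of 18 alternatives in knockdown (edgeR adjusted p = 0.0224, 0.0386 and 0.046). Atg4d did so in 2 (0.0494 and 0.0446). In overexpression Atg12 and Atg13 gained a call in 1 each (0.0495 and 0.0362). The replicate numbers showed no clear pairing, as the deviations of 9 same-numbered pairs correlated between -0.093 and 0.127, and 1 was over 0.1. Differently numbered pairs correlated between -0.131 and 0.093. Low correlations cannot show that libraries of the same number were prepared apart. With the number as a replicate block 11, 12 and 10 members and 4423, 2957 and 2712 genes in all were called. No scaling moved the median of all genes by over 0.1. Depth limits the statements on Atg9b and Atg4a-ps, and transcripts of 1 gene cannot be separated firmly by Salmon. Overlap with genes on the opposite strand limits those on Atg4d and Atg9b. Exons of Kri1 cover 19.3% of those of Atg4d, at 862.82 counts a library beside 503.7. Exons of Nos3 cover 7.5% of those of Atg9b, at 13.76 counts beside 14.1. Coding transcripts held 7.52% of the Atg4d TPM in knockdown, 6.07% in overexpression and 8.83% in control libraries.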

Other observations

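The following values were looked up after the differences of the ATG8 genes were seen and carry no test of their own. Among the 10 nearest tested protein-coding genes around Gabarap, 5 on each side, 0 rose and 2 fell in knockdown against control, and their log2 differences ranged from -0.31 to 0.16, beside -1.45 for Gabarap. The genes that fell were its direct neighbour Ctdnep1, a nuclear envelope phosphatase (log2 -0.22 ± 0.07 SE, edgeR adjusted p = 0.0152), and Acadvl, an enzyme of mitochondrial fatty acid oxidation (log2 -0.31 ± 0.07 SE, adjusted p = 0.0035). In overexpression 1 of the 10 rose, Slc2a4, an insulin-responsive glucose transporter (log2 0.76 ± 0.21 SE, adjusted p = 0.0155), and 0 fell. Around Gabarapl1, 2 of 10 rose and 0 fell in knockdown, and 3 rose and 0 fell in overexpression. Around Gabarapl2, 1 of 10 rose and 1 fell in knockdown, and 1 rose and 0 fell in overexpression. Around Map1lc3a the counts were 1 and 2 in knockdown, and 0 and 2 in overexpression. Around Map1lc3b they were 1 and 5 in knockdown, and 2 and 1 in overexpression. Of all genes tested, 35.4% were called in knockdown and 24.3% in overexpression.

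A single transcript, Gabarap-201, held 85.4% to 100% of the TPM of Gabarap in each of the 9 libraries. Gabarapl1-201 held 74.2% to 99.6% of the TPM of Gabarapl1. For Map1lc3b the transcript Map1lc3b-201 held 44.5% to 56.6% in knockdown, 50.5% to 58.0% in overexpression and 37.9% to 45.9% in control libraries, and short coding transcripts held most of the rest. Atg4b, the main ATG8 protease, was called in neither line on counts. Its TPM averaged 37.0 ± 3.3 in knockdown and 33.9 ± 8.2 in overexpression, against 24.4 ± 4.5 in control libraries (SD, n = 3 each), and the share on coding transcripts was 62.0% ± 3.3 in knockdown and 77.0% ± 11 in overexpression, against 77.1% ± 4.6 in control. Salmon divides fragments among such transcripts, so these shares are less certain than the gene totals.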
